A study of Bos taurus with 18 samples.

Results

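Keratins, the intermediate filament proteins of epithelial cells, are used with a few other genes to tell the cell layers of the mammary gland apart. The messenger RNA of 10 such genes was followed here in cultured MAC-T cells, which were immortalised from the mammary epithelium of a cow. They are KRT8, KRT18, KRT19 and KRT7 (keratins of luminal cells), KRT5, KRT14 and KRT17 (keratins of basal cells), VIM (vimentin), CDH1 (E-cadherin) and EPCAM. The genes were chosen by name from the 30642 genes of the deposited count table, and all 10 of the 10 passed the filter on low counts, which left 15158 genes for testing. The table holds 18 poly-A libraries in 6 groups of 3, numbered replicate 1 to 3 in each group, and per the labels the experiment as a whole was carried out 3 times.

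All groups were kept in culture for 4 days with insulin (5 µg/ml) and hydrocortisone (1 µg/ml), so that the undifferentiated controls also received a glucocorticoid. Undifferentiated cells (groups NHSUD and HSUD) stayed in this basal medium. Differentiated cells (NHSD, HSD, D2R and D6R) received a lactogenic medium that added serum, ovine prolactin (5 µg/ml) and dexamethasone (10 µg/ml). NHSUD and NHSD were never heated and stayed at 37 °C. HSUD and HSD were collected after 1 h at 42 °C. D2R and D6R were heated in the same way and then returned to 37 °C for 2 h or 6 h. Both unheated groups shared plate I, both heated groups plate II and both recovery groups plate III. Heat or recovery and the plate therefore cannot be told apart, except between D6R and D2R, which shared a plate. Each library pooled 2 technical replicates, and all came from 1 cell line, so the spread between libraries is that of cultures, not of animals.

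Library totals ranged from 40891700 to 61155800 counts, and the ranges of the 3 replicate numbers overlapped. Values per library are in CPM, the counts of a gene scaled to a common library total, with edgeR's TMM factors. A gene was called at a Benjamini-Hochberg adjusted p under 0.05 over all tested genes in edgeR's quasi-likelihood test. The test without a replicate block compares group means against the spread of all libraries. The test with the block also fits a level for each replicate number, since same-numbered libraries deviated together from their group means. In these cultures, fewer cells of a type and less RNA per cell cannot be told apart.

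Keratins assemble as pairs of a type I and a type II chain. KRT8 and KRT18 form such a pair in luminal cells, which line the ducts and alveoli and secrete milk. KRT5 and KRT14 form the pair of basal cells, the outer layer with the contractile myoepithelium. Vimentin builds the filaments of mesenchymal cells and is often followed when epithelial cells take on a mesenchymal state. E-cadherin joins epithelial cells at adherens junctions, and EpCAM is a membrane protein of most simple epithelia.

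The keratin pairs of both layers were read in every library. KRT5 had 384683 to 838275 reads per library and held 0.933 to 1.61% of all counts, and its partner KRT14 had 10064 to 51229 reads. KRT8 had 148490 to 254261 reads and its partner KRT18 had 74163 to 161413. KRT17 had 44450 to 212883. Read numbers scale with transcript length, which was not used here, so they do not order the genes by their number of molecules. Together the 55 keratin genes of the table took 1.95 to 3.08% of all counts, and that share was higher in each library of replicate 3 (up to 3.08%) than in any of replicates 1 and 2 (up to 2.49%).

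VIM and KRT19 had few reads. VIM had 112 to 385 reads per library (2.48 to 7.39 CPM) and KRT19 had 128 to 510 reads (2.95 to 11.0 CPM). Within a library, KRT18 had 394 to 801 times as many reads as VIM, not corrected for length. CDH1 lay between 133 and 274 CPM and EPCAM between 92.5 and 137 CPM. Among the other genes of a mesenchymal list, CDH2 (N-cadherin), ZEB2 and TWIST1 had 0 reads in all libraries, whereas S100A4 (1671 to 4059 CPM) and FN1 (fibronectin, 557 to 1819 CPM) were abundant.

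The epithelial label of the cells was set beside markers of other cell types. The summed level of the 6 endothelial markers was 1.09 to 4.61 CPM, that of the 6 leukocyte markers 1.06 to 2.65 CPM and that of the 5 adipocyte markers 4.38 to 10.1 CPM. The 8 fibroblast markers summed to 428 to 821 CPM, nearly all of it DCN (decorin, 417 to 813 CPM), and to 7.48 to 14.9 CPM without it. Of the 21 luminal identity genes, 13 passed the low-count filter, among them XBP1 (106 to 208 CPM), TFAP2C (55.9 to 102), EHF (37.3 to 74.7), ELF3 (36.3 to 67.8) and the receptor ERBB3 (18.3 to 35.7). The 13 also include FOXA1 (2.41 to 7.96 CPM), MUC1 (1.04 to 6.05) and GATA3 (0 to 0.584), and GATA3 had 0 reads in 2 libraries. The other 8 did not pass the filter. Among them, PGR and ALDH1A3 had 0 reads in all libraries, and ESR1, KIT, SPDEF, CITED1 and ELF5 reached at most 2, 4, 8, 11 and 14 reads in a library. The 6 milk genes reached at most 4 reads in any library, and CSN1S2 and LALBA had 0. A count of 0 in a library allows up to 3 reads, and this limit covers counting error only.

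**Figure D1:**
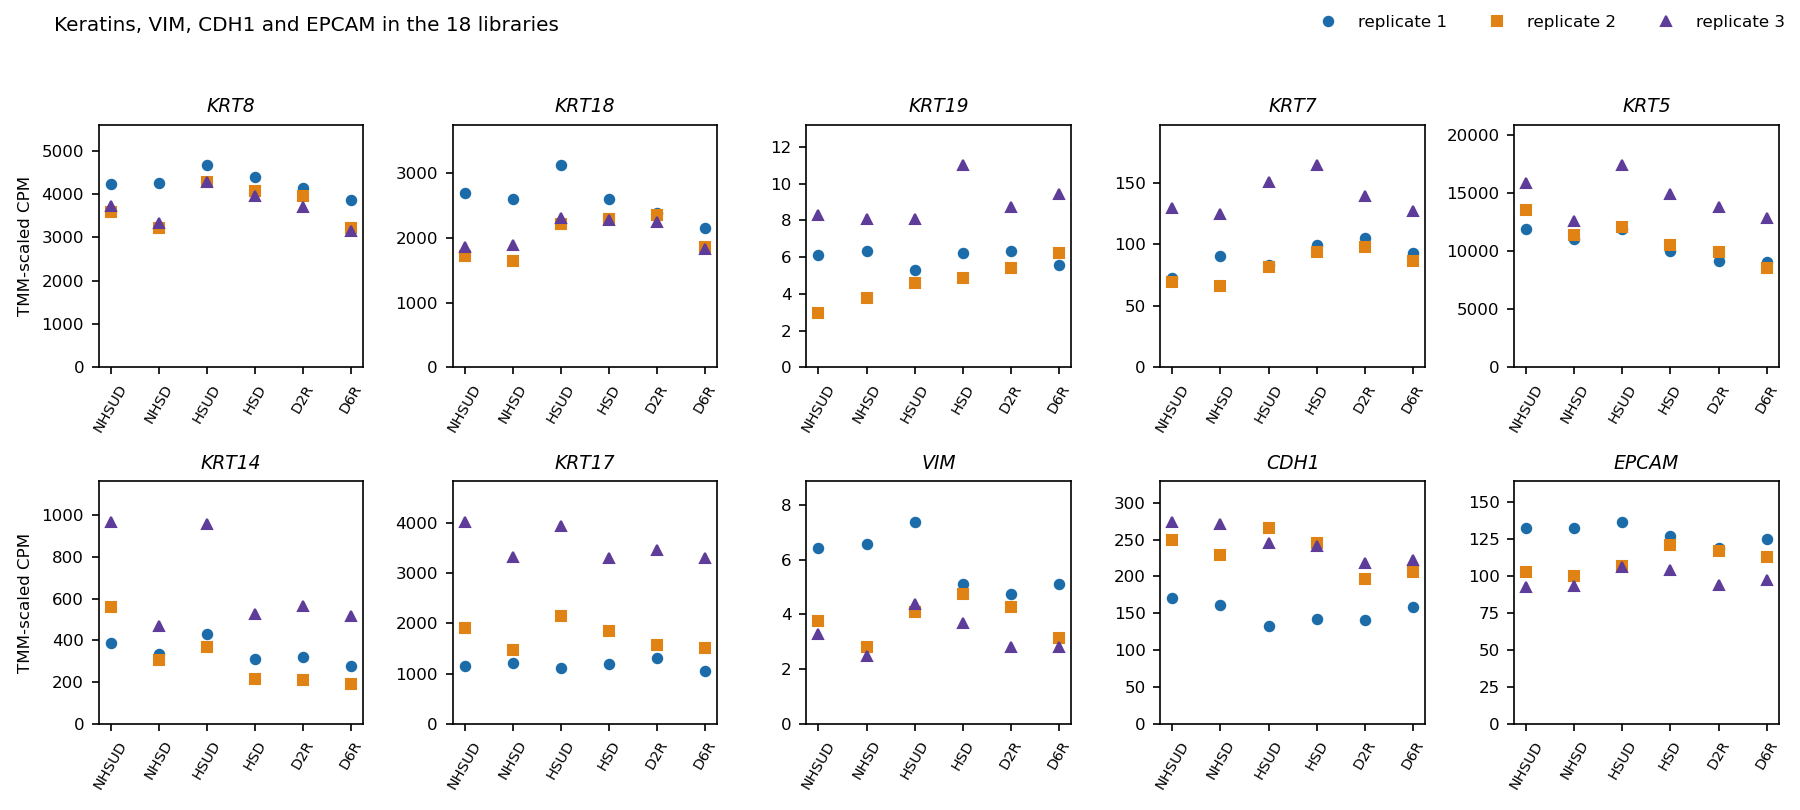
TMM-scaled CPM of the 10 genes (1 panel each, vertical axis from 0) in the 6 groups, with 1 point per library and the replicate number as colour and shape. Replicate 3 is highest in all 6 groups for KRT19, KRT7, KRT5, KRT14 and KRT17, and replicate 1 is highest in all 6 for KRT8, KRT18, VIM and EPCAM.

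For 9 of the 10 genes, more of the variance of log2 CPM lay between the replicate numbers than between the groups. KRT8 was the exception, with 34.2% between replicate numbers and 56.6% between groups. KRT17, an inducible basal keratin, was at 1055 to 1300.1 CPM in the 6 libraries of replicate 1 (median 1173), at 1460.4 to 2149 in replicate 2 (median 1709) and at 3296 to 4031 in replicate 3 (median 3399.5). The 3 sets did not overlap. Replicate 3 exceeded replicate 1 by 1.60 ± 0.09 on the log2 scale (SE, 3.03-fold), with an adjusted p of 3.0e-10 in edgeR. Of its variance, 95.4% lay between replicate numbers and 2.11% between groups. Each replicate number stands for a single run of the experiment. The p-values between replicate numbers therefore measure the spread of libraries within runs, not how much runs vary.

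KRT14, the type I partner of KRT5, was at 275 to 431 CPM in replicate 1 (median 328), at 188 to 562 in replicate 2 (median 260.4) and at 471 to 970.0 in replicate 3 (median 546). Replicate 3 exceeded replicate 1 by 0.91 ± 0.13 on the log2 scale (SE, edgeR, adjusted p of 2.7e-05) and replicate 2 by 1.15 ± 0.13 (4.2e-06). KRT5 differed in the same direction by 0.48 ± 0.08 (replicate 3 against 1) and 0.41 ± 0.08 (3 against 2), from 9079.7 to 11918 CPM in replicate 1 and 8581 to 13558 in replicate 2 to 12583 to 17380.2 in replicate 3. Neither KRT5 nor KRT14 was called between replicates 2 and 1.

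The luminal keratins divided into pairs. KRT7 and KRT19, of simple epithelia, were highest in replicate 3. KRT7 was at 72.5 to 105 CPM in replicate 1, 66.3 to 97.9 in replicate 2 and 125 to 164 in replicate 3, without overlap between replicate 3 and the others, and replicate 3 exceeded replicate 1 by 0.62 ± 0.07 on the log2 scale (SE, edgeR, adjusted p of 1.9e-06). For KRT19 that difference was 0.57 ± 0.13 (adjusted p of 0.00144), with 8.07 to 11.0 CPM in replicate 3, 5.28 to 6.36 in replicate 1 and 2.95 to 6.20 in replicate 2. The pair KRT8 and KRT18 was instead highest in replicate 1. KRT18 was at 2155 to 3114 CPM in replicate 1, 1637 to 2349 in replicate 2 and 1824 to 2309 in replicate 3. It was lower in replicate 3 than in replicate 1 by a log2 difference of -0.33 ± 0.08 (SE, edgeR, adjusted p of 0.00278), and KRT8 by -0.21 ± 0.07 (0.0148). Neither was called between replicates 3 and 2.

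The adhesion genes CDH1 and EPCAM differed in opposite directions, and VIM went with EPCAM. CDH1 was at 133 to 171 CPM in replicate 1, 196 to 266 in replicate 2 and 219 to 274 in replicate 3. The 6 libraries of replicate 1 were all below the other 12, with log2 differences of 0.62 ± 0.07 for replicate 2 and 0.70 ± 0.07 for replicate 3 (SE, edgeR, adjusted p of 2.2e-05 and 4.9e-07). EPCAM was highest in replicate 1 (119 to 137 CPM) and lowest in replicate 3 (92.5 to 106 CPM), a log2 difference of -0.40 ± 0.06 (adjusted p of 3.9e-05). VIM, at 4.73 to 7.39 CPM in replicate 1 and 2.48 to 4.36 CPM in replicate 3, had a log2 difference of -0.88 ± 0.14 (adjusted p of 6.5e-05).

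**Figure D2:**
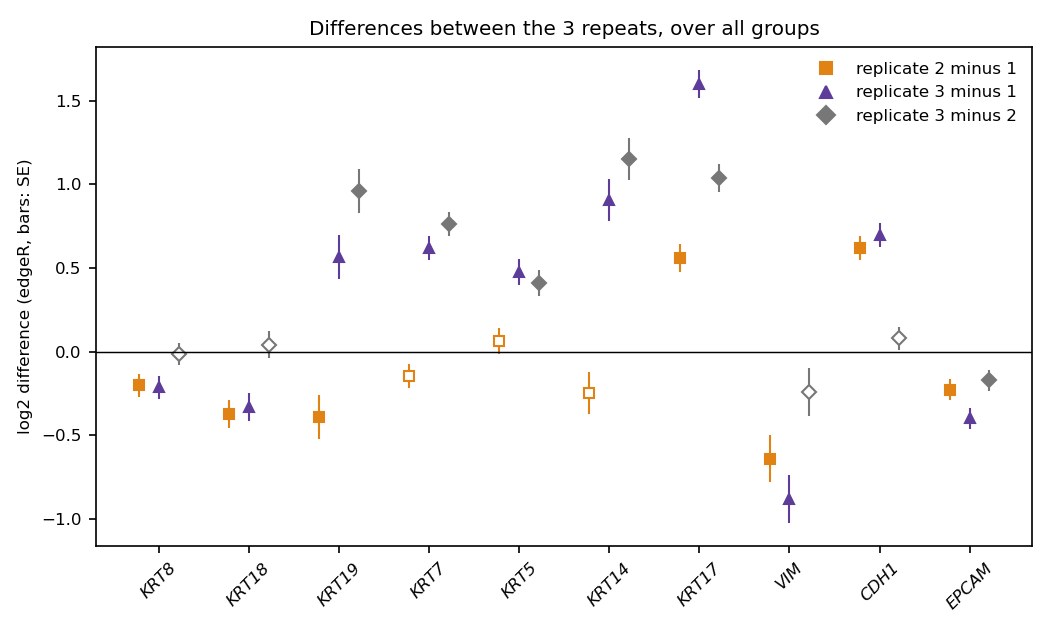
Log2 differences between the replicate numbers for each of the 10 genes, averaged over the 6 groups (edgeR fit with replicate numbers, bars are SE); filled symbols have an adjusted p under 0.05. KRT17 has the largest difference (1.60, replicate 3 minus 1), and KRT8, KRT18, VIM and EPCAM are below 0 in replicate 3 minus 1.

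In the joint test of the replicate numbers, 10 of the 10 genes were called (edgeR, adjusted p from 6.2e-10 for KRT17 to 0.0172 for KRT8), where 53.6% of all tested genes were called. Between replicates 3 and 1, 6 members were called higher and 4 lower (23% and 21.4% of all tested genes). Between replicates 2 and 1, 2 were higher and 5 lower (14.8% and 13.9%), and between replicates 3 and 2, 5 were higher and 1, EPCAM, lower (15.1% and 14.5%). One replicate number was highest in all 6 groups for 9 of the 10 members, CDH1 being the exception, and for 18.1% of all tested genes. The members' median share of variance between replicate numbers was 71.4% against 34.9% over all tested genes, and that between groups 16.6% against 27.6%. These shares were not matched on level. By mean CPM the members ranked from 2 (KRT5) to 10276 (VIM) among the tested genes. All 10 calls of replicate 3 against 1 were made in each of 18 fits that left out 1 library, whereas the KRT8 and KRT19 calls of replicate 2 against 1 and the EPCAM call of 3 against 2 were lost in 7, 5 and 9 of them (adjusted p up to 0.107, 0.106 and 0.138). KRT8 and KRT19 both lost it without NHSD replicate 1 or 2, NHSUD replicate 1 or 2, or HSD replicate 2, and KRT8 also without D6R replicate 1 or 2. EPCAM lost it without replicate 2 or 3 of D2R, D6R or HSD, or without replicate 3 of NHSD or NHSUD or replicate 1 of HSUD. In the joint test, 9 members were called without D6R replicate 1, without NHSD replicate 1 and in the differentiated groups alone, KRT8 being the one lost.

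Other keratins were taken from a list of 29, of which 14 were tested. Of the 14, 10 were called higher and 1 lower in replicate 3 than in replicate 1 (23% and 21.4% of all tested genes). Against replicate 2, 8 were called higher and 0 lower in replicate 3 (15.1% and 14.5%). The median log2 difference of the 14 was 0.96 (replicate 3 minus 1) against 0.02 over all tested genes. Several of the 14 had low levels, with means of 0.272 (KRT1), 0.617 (KRT75), 0.726 (KRT6B) and 0.783 CPM (KRT6C). KRT13 and KRT4, a keratin pair of the upper layers of lining epithelia, differed by 2.14 and 2.09 on the log2 scale (replicate 3 minus 1) and by 3.59 and 3.51 (3 minus 2). KRT13 was at 30.7 to 74.9 CPM in the 6 libraries of replicate 3, at 7.89 to 15.1 in replicate 1 and at 2.84 to 5.81 in replicate 2, so that the 3 sets did not overlap. KRT79 differed by 2.79 and 3.39, and KRT15, a keratin of basal layers and stem cells of stratified epithelia, by 1.17 and 1.90. KRT6A (0.58 and 0.40), which lies next to KRT5 in the RefSeq annotation of ARS-UCD2.0, had 2019.8 to 3797 CPM. KRT10, a keratin of differentiating epidermis, was the 1 called lower (-1.06 in replicate 3 minus 1), at 0.473 to 2.58 CPM. KRT16 lies between KRT14 and KRT17 in the same annotation, and close copies of this kind may share reads, so the values of each are uncertain. KRT16 itself had at most 28 reads in a library.

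**Figure D3:**
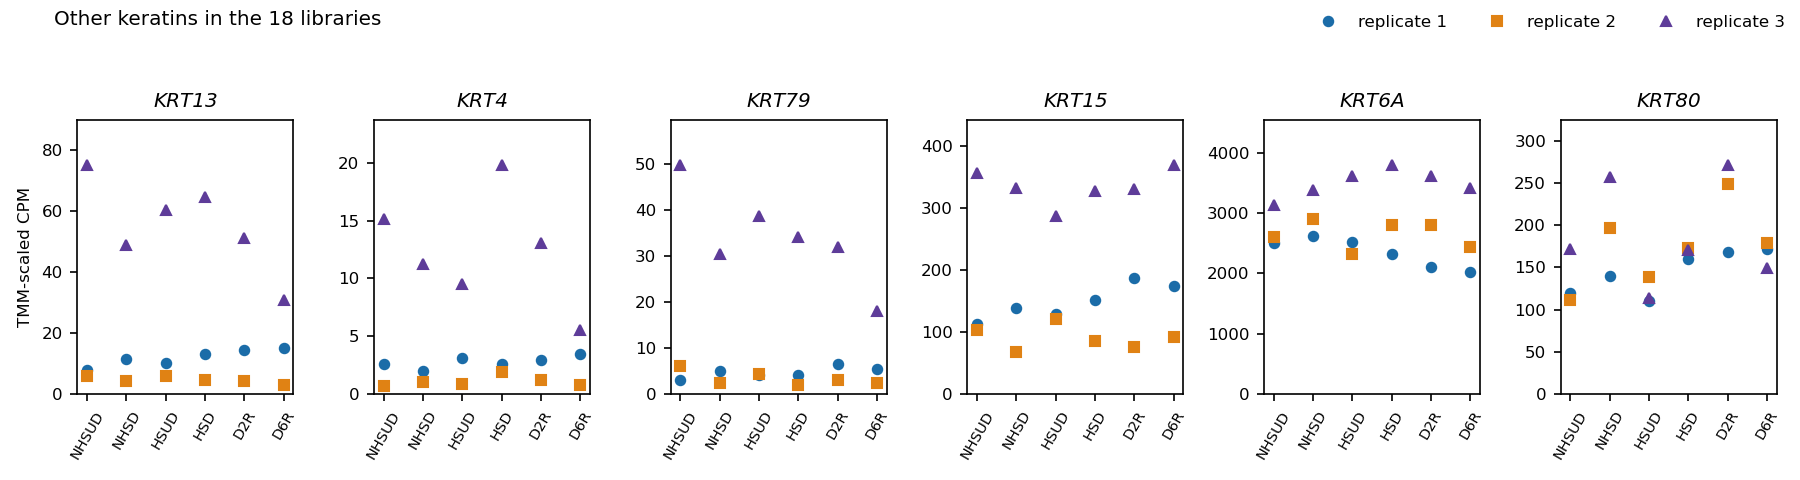
TMM-scaled CPM of 6 other keratins in the 6 groups, 1 point per library, with the replicate number as colour and shape and a vertical axis from 0. Replicate 3 stands above both other replicates in every group for KRT13, KRT4, KRT79, KRT15 and KRT6A, but not for KRT80.

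Genes of the basal layer and of cell junctions were followed in the same test, where 23% of all tested genes were called higher and 21.4% lower in replicate 3 than in replicate 1. Of 14 tested basal and myoepithelial genes, 8 were called higher and 0 lower in replicate 3 than in replicate 1, with a median log2 difference of 0.64 (0.02 over all tested genes). They include TP63, the master regulator of basal epithelium (1.31), ACTA2, the smooth muscle actin of myoepithelium (0.99), and LGALS7, a galectin of stratified epithelia (1.98). Other contractile genes of this list had low levels, with means of 0.165 (MYLK), 0.172 (CNN1), 0.317 (MYH11) and 1.44 CPM (TAGLN). Mean TAGLN was 1.08, 2.16 and 1.07 CPM in replicates 1, 2 and 3. Mean MYLK was highest in replicate 1, whereas CNN1 and MYH11 were highest in replicate 3. CAV1 (caveolin) and ITGA6 (an integrin of hemidesmosomes), with the highest CPM of the list, had log2 differences of -0.09 (not called) and 0.36 (called). Between replicates 3 and 2, 6 of the 14 basal genes were called higher and 2 lower (15.1% and 14.5% of all tested genes). Of 15 desmosome and adherens junction genes, 10 were called higher and 2 lower in replicate 3 than in replicate 1. The desmosomal genes DSP (0.90), DSC3 (0.89) and DSG3 (0.52) were among the higher ones, and PKP2 (-0.34) was among the lower. Of 11 tested cytolinkers and other intermediate filament genes, 4 were called higher and 3 lower. PLEC (0.75), DST (1.34) and EVPL (1.07), which tie filaments to junctions, and NES (2.10), an intermediate filament, were the higher ones. The nuclear lamins LMNA (-0.23), LMNB1 (-0.68) and LMNB2 (-0.48) were the lower ones. The cytolinkers EPPK1 (0.69) and PPL (0.33) were not called. Between replicates 3 and 2, 3 of the 15 junction genes were called higher and 2 lower. Of the 11 cytolinkers and filaments, 2 were called higher and 3 lower there, beside the same 15.1% and 14.5% of all tested genes. With 1 library left out, the higher and lower counts of replicate 3 against 1 were 8 and 0 in every fit for the basal genes. They were 9 to 10 and 2 to 3 for the junction genes, and 3 to 6 and 3 for the cytolinkers and filaments.

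Luminal and mesenchymal genes were called in both directions between replicates 3 and 1. Of 13 tested luminal identity genes, 4 were called higher (CLDN4, FOXA1, TFAP2A and TFAP2C) and 1 lower (CD24), with a median of 0.03, where 23% of all tested genes were called higher and 21.4% lower. Of 11 tested mesenchymal genes, 6 were called higher, among them SPARC (1.31), FN1 (1.16) and SNAI2 (0.68), and 1 lower (TGFBI, -0.89). With DESeq2 size factors 4 of the mesenchymal genes were called higher, and with library size alone 5. Of 14 epithelial transcription and splicing factors, 6 were called higher, including GRHL2 (0.42), and 0 lower, or 1 lower with DESeq2 size factors or with library size alone. TP63 is in this list and in the basal list, and SNAI2 in the mesenchymal and basal lists, so these counts share genes. With 1 library left out, the higher and lower counts were 4 to 5 and 0 to 2 for the luminal genes, 4 to 6 and 1 for the mesenchymal genes, and 6 to 9 and 0 to 2 for the transcription and splicing factors. Between replicates 3 and 2, 4 luminal genes were called higher and 2 lower. The mesenchymal genes had 3 and 3 there, and the transcription and splicing factors 4 and 0 (15.1% and 14.5% of all tested genes). The fibroblast marker sum was 622 to 821 CPM in replicate 3 against 428 to 619 CPM in replicates 1 and 2, where DCN made up nearly all of it, and the endothelial sum was 2.34 to 4.61 CPM against 1.09 to 2.84 CPM. Their part in these differences was not tested.

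The lactogenic medium, which added serum, prolactin and dexamethasone, was compared with the basal medium for these genes. KRT14 had the largest log2 difference of the 10 genes in both settings. Without heat it was at 389, 562 and 970.0 CPM in NHSUD (replicates 1, 2 and 3) and at 337, 305 and 471 CPM in NHSD. With heat it was at 431, 369 and 960.2 CPM in HSUD and at 308, 215 and 528 CPM in HSD. KRT14 was lower in the lactogenic medium in 3 of 3 replicates in each setting, while the groups overlapped, and replicate 3 was the highest in both media. The log2 difference with the replicate block was -0.73 ± 0.18 without heat and -0.71 ± 0.18 with heat (SE, edgeR, adjusted p of 0.353 and 0.285), so neither comparison was called alone. DESeq2 with the block called KRT14 in both (adjusted p of 0.0122 and 0.0330), and without the block in neither. Each adjusted p of DESeq2 covers only the genes that its own filter kept in that comparison. It is therefore not corrected over the same genes as that of edgeR.

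Averaged over both settings, a comparison added after the data were seen, KRT14 fell by 0.72 on the log2 scale with the block (SE 0.12, 1.64-fold lower, edgeR, adjusted p of 0.0117). Without the block the estimate was -0.76 ± 0.33 and was not called (adjusted p of 0.9997). With the block, KRT14 was called in each of 12 fits that left out 1 library (log2 difference of -0.83 to -0.59, adjusted p of 0.00183 to 0.0499). KRT14 was the 1 member called of 10, beside 0.805% of all tested genes with the block and 0% without it.

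KRT5, the partner of KRT14, was also lower in the lactogenic medium in 3 of 3 replicates in each setting. It was at 11918, 13558 and 15872 CPM in NHSUD and at 11007, 11363 and 12583 CPM in NHSD. In heated cells it was at 11865, 12111 and 17380.2 CPM in HSUD and at 9979, 10506 and 14934 CPM in HSD. The averaged log2 difference was -0.23 ± 0.08 with the block (SE, edgeR, adjusted p of 0.232) and was not called, while DESeq2 with the block gave an adjusted p of 0.0476. Including the recovery groups, both basal-medium libraries were above all 4 lactogenic libraries in every replicate number for KRT5 and KRT14, 2 of the 10 members, and for 0.765% of all tested genes. The KRT5 to KRT14 read ratio had a mean log2 value of 4.52 ± 0.46 in NHSUD and 4.67 ± 0.44 in HSUD (SD, n = 3), and of 5.00 ± 0.24 in NHSD, 5.15 ± 0.41 in HSD, 5.00 ± 0.49 in D2R and 5.07 ± 0.44 in D6R. KRT17 was lower in the lactogenic medium in replicates 2 and 3 and higher in replicate 1 (1159 against 1209 CPM without heat), with an averaged difference of -0.16 ± 0.08 (adjusted p of 0.439).

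**Figure D4:**
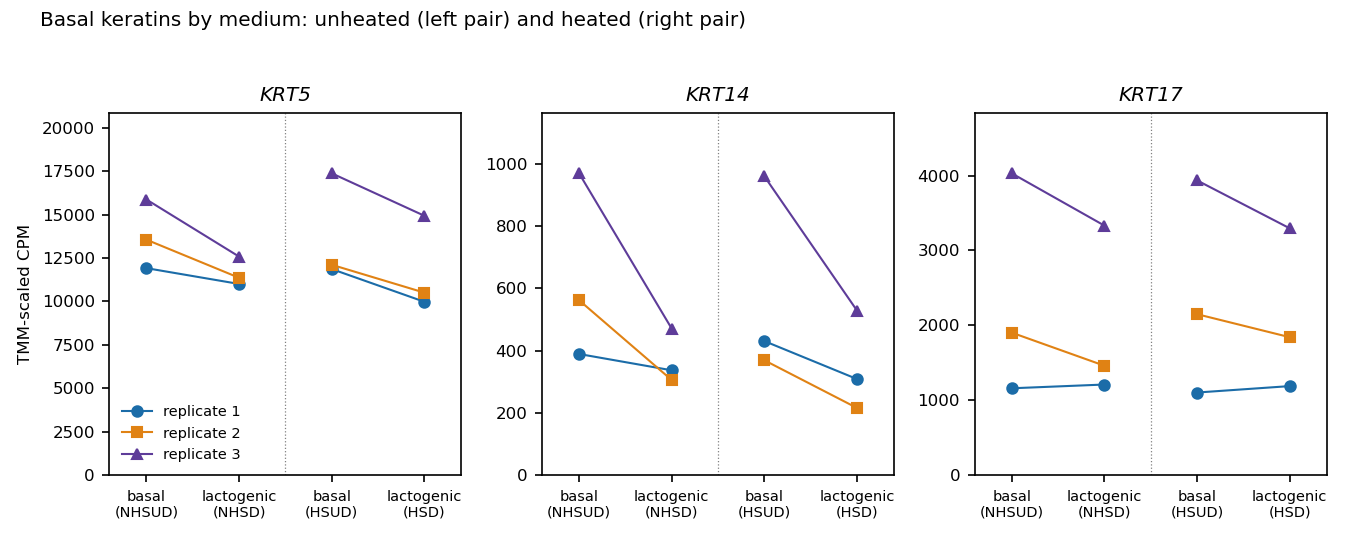
TMM-scaled CPM of KRT5, KRT14 and KRT17 (vertical axes from 0) in basal and lactogenic medium, unheated on the left and heated on the right of each panel; lines join libraries with the same replicate number. All 6 lines fall for KRT5 and KRT14, and for KRT17 the 2 lines of replicate 1 do not.

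None of the other 8 members was called for the medium. In the single comparisons, edgeR called 0 of 10 members without heat (0% of all tested genes, and 0.0066% with the block) and 0 of 10 with heat (0% and 0.0198% with the block). At an unadjusted p under 0.05 these were 0 and 0 members without the block, and 2 (KRT5 and KRT14) and 1 (KRT14) with it, beside 805 and 962 of the 15158 tested genes. The luminal keratins had averaged differences between -0.10 ± 0.07 (KRT8) and 0.18 ± 0.13 (KRT19), VIM -0.21 ± 0.14, CDH1 -0.05 ± 0.07 and EPCAM 0.00 ± 0.06 (SE, with the block), where the sign of EPCAM turned with DESeq2 size factors. Of the 115 tested list genes, members included, 3 were called for the averaged medium difference with the block, beside 0.805% of all tested genes. Besides KRT14, LMNA (-0.32 ± 0.06, adjusted p of 0.0200) and CLDN4, a tight junction claudin of luminal cells (0.42 ± 0.09, 0.0208), were called in edgeR, and each call was lost in 6 of 12 fits that left out 1 library (adjusted p up to 0.0863 and 0.0743). Both were lost without HSD replicate 2 or 3, HSUD replicate 3 or NHSD replicate 1, LMNA also without NHSD replicate 2 or NHSUD replicate 3, and CLDN4 also without NHSD replicate 3 or NHSUD replicate 2. Milk genes were not tested, and a difference was not detectable at this depth.

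Heat was tested in both media. KRT7 was at 72.5, 69.2 and 129 CPM in NHSUD and at 83.4, 81.5 and 151 CPM in HSUD (replicates 1, 2 and 3). It was at 90.8, 66.3 and 125 CPM in NHSD and at 99.6, 93.8 and 164 CPM in HSD. KRT7 was thus higher with heat in 3 of 3 replicates in each medium, and the groups overlapped. The log2 difference with the block was 0.22 ± 0.10 in undifferentiated and 0.34 ± 0.10 in differentiated cells (SE, edgeR, adjusted p of 0.385 and 0.183), and neither was called.

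Averaged over both media, a comparison also added after the data were seen, KRT7 rose by 0.28 ± 0.07 on the log2 scale with the block (SE, 1.21-fold, edgeR, adjusted p of 0.0296). It was not called without the block (0.28 ± 0.22, adjusted p of 0.685) or with the block and scaling by library size alone (0.18, 0.119). The blocked call was also lost in 7 of 12 fits, those without HSD replicate 2 (0.0837) or 3 (0.0902), HSUD replicate 3 (0.106), NHSD replicate 2 (0.105) or 3 (0.0860), or NHSUD replicate 1 (0.0759) or 2 (0.0696). KRT7 was the 1 member called of 10, beside 6.1% of all tested genes with the block, and 0 members were called without it (0.785% of all tested genes).

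KRT8 and KRT18 were also higher with heat in 3 of 3 replicates in each medium. KRT18 was at 2686, 1711 and 1859 CPM in NHSUD, 3114, 2206 and 2309 in HSUD, 2589, 1637 and 1883 in NHSD and 2602, 2287 and 2276 in HSD. KRT8 was at 4232, 3588 and 3722 CPM in NHSUD, 4658, 4266 and 4275 in HSUD, 4246, 3223 and 3327 in NHSD and 4382, 4078 and 3953 in HSD. The KRT8 libraries of HSUD and NHSUD did not overlap, which held for 7.62% of all tested genes. For KRT8 this rests on the TMM factors, which in replicate 1 were 0.983 in NHSUD and 0.883 in HSUD. By library total alone the KRT8 values of these groups overlapped, and in replicate 1 KRT8 was lower in HSUD than in NHSUD. The averaged heat differences were 0.27 ± 0.08 for KRT18 and 0.20 ± 0.07 for KRT8 with the block (SE, edgeR, adjusted p of 0.0521 and 0.0749), so neither was called by edgeR, whereas DESeq2 with the block called both (0.0155 and 0.00859). Without the block neither tool called them. KRT14, KRT5, KRT17 and CDH1 had averaged heat differences of -0.18 ± 0.12, -0.01 ± 0.08, 0.06 ± 0.08 and -0.11 ± 0.07, and VIM of 0.28 ± 0.14 (edgeR with the block, adjusted p of 0.243). The sign of KRT17 turned with scaling by library size alone.

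In the single heat comparisons, edgeR called 0 of 10 members in undifferentiated cells (0.125% of all tested genes, and 0.633% with the block) and 0 of 10 in differentiated cells (0.099% and 0.554%). At an unadjusted p under 0.05 these were 0 and 0 members without the block, and 2 (KRT18 and KRT7) and 3 (KRT8, KRT18 and KRT7) with it, beside 1908 and 1827 of the 15158 tested genes. DESeq2 called 0 in both comparisons with and without the block. The difference between the media in the heat effect was called for 0 of 10 members with and without the block (0% of all tested genes in each), with 0 members at an unadjusted p under 0.05. With the block, that difference ranged from -0.04 ± 0.16 for KRT18 to 0.17 ± 0.26 for KRT19 (SE, log2), and DESeq2 called 0 members with and without the block. Of the 115 tested list genes, members included, 4 were called for the averaged heat effect with the block in edgeR, beside 6.1% of all tested genes. Besides KRT7 they were TP63 (-0.38 ± 0.10, adjusted p of 0.0295), TFAP2A (-0.44 ± 0.12, 0.0420) and ELF3 (0.35 ± 0.10, 0.0383), which encode transcription factors. These 3 calls were lost in 7, 8 and 8 of the 12 fits that left out 1 library (adjusted p up to 0.107, 0.149 and 0.117). Each was lost without HSD replicate 2 or 3, HSUD replicate 3 or NHSD replicate 2 or 3. TP63 was also lost without NHSUD replicate 2 or 3, TFAP2A without HSUD replicate 1 or NHSUD replicate 1 or 3, and ELF3 without HSD replicate 1 or NHSUD replicate 1 or 2.

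Recovery was compared with the end of heat and with unheated cells. After 6 h, KRT8 was at 3859.5, 3212 and 3139.9 CPM in D6R, below the 4382, 4078 and 3953 CPM of HSD. KRT18 was at 2155, 1858 and 1824 CPM in D6R and at 2602, 2287 and 2276 CPM in HSD. For both genes the libraries of D6R and HSD did not overlap, as for 14% of all tested genes. The log2 differences with the block were -0.29 ± 0.10 and -0.30 ± 0.12 (SE, edgeR, adjusted p of 0.0904 and 0.140), and neither was called. DESeq2 with the block called KRT8 (0.0110) and not KRT18 (0.0772). KRT18 also did not overlap between D6R and D2R (2373, 2349 and 2234 CPM), which held for 7.71% of all tested genes. These separations of KRT8 and KRT18 hold for TMM-scaled CPM, and by library total alone the groups overlapped in each case.

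Against unheated differentiated cells, D6R differed by -0.08 ± 0.10 for KRT8 and -0.05 ± 0.12 for KRT18 on the log2 scale (SE, with the block). KRT7 was higher than in NHSD in 3 of 3 replicates after 2 h and after 6 h, by 0.31 ± 0.10 (edgeR with the block, adjusted p of 0.267) and 0.15 ± 0.10 (0.524), and was not called. KRT14 differed from NHSD by -0.13 ± 0.18 after 2 h and -0.29 ± 0.18 after 6 h, and was higher than in NHSD in replicate 3 at both times (564 and 518 against 471 CPM) and lower in replicates 1 and 2. CDH1 was lower than in NHSD in 3 of 3 replicates at both times, by -0.24 ± 0.10 and -0.15 ± 0.10 (adjusted p of 0.420 and 0.504).

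None of the members was called by edgeR in any of the 5 recovery comparisons, with or without the block. The share of all tested genes called was 0.0792% after 2 h against NHSD (0.224% with the block), 0.0132% after 6 h against NHSD (1.45%), 0.0528% after 2 h against HSD (0.389%), 0.066% after 6 h against HSD (3.27%) and 0% between 6 h and 2 h (0% with the block). DESeq2 called 0 members without the block and KRT8 alone, after 6 h against HSD, with it. At an unadjusted p under 0.05 in edgeR, 0 members were found without the block in each. With it, there were 2 after 2 h against NHSD (KRT7 and CDH1), 2 after 6 h against HSD and 2 between 6 h and 2 h (KRT8 and KRT18 in both), and 0 in the other 2. Of the 15158 tested genes, 1540, 3417 and 1808 were under this p in the first 3, so that the 2 of 10 members after 6 h against HSD were near the share of all genes. These comparisons share the NHSD or HSD libraries, and the unheated cells were not collected at matched times. AREG, an epidermal growth factor family ligand, rose in D6R against HSD by 0.54 ± 0.11 and against NHSD by 0.43 ± 0.11 (edgeR with the block, adjusted p of 0.0120 and 0.0479), from 109.6, 96.1 and 86.9 CPM in HSD and 97.5, 112 and 106 CPM in NHSD to 132, 138 and 155 CPM in D6R. The 3 libraries of D6R were above all 6 of HSD and NHSD. Libraries of D6R did not overlap with those of HSD for 14% of all tested genes, and with those of NHSD for 9.7%. Against HSD the call was lost without D6R replicate 3 or HSD replicate 2 or 3 (adjusted p up to 0.126), and against NHSD in all of 6 such fits but that without D6R replicate 1 (up to 0.331). FOXA1 (0.82 ± 0.20, adjusted p of 0.0339), DSG3 (0.42 ± 0.11, 0.0464) and RAB25 (-0.51 ± 0.12, 0.0249) were also called between D6R and HSD with the block, so that 4 of the 115 tested list genes were, beside 3.27% of all tested genes. FOXA1 and RAB25 were lost without replicate 2 or 3 of either group (adjusted p up to 0.188 and 0.177), and DSG3 in all of 6 fits (up to 0.228). None of the list genes named for the medium, heat or recovery was called in these comparisons without the block.

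**Figure D5:**
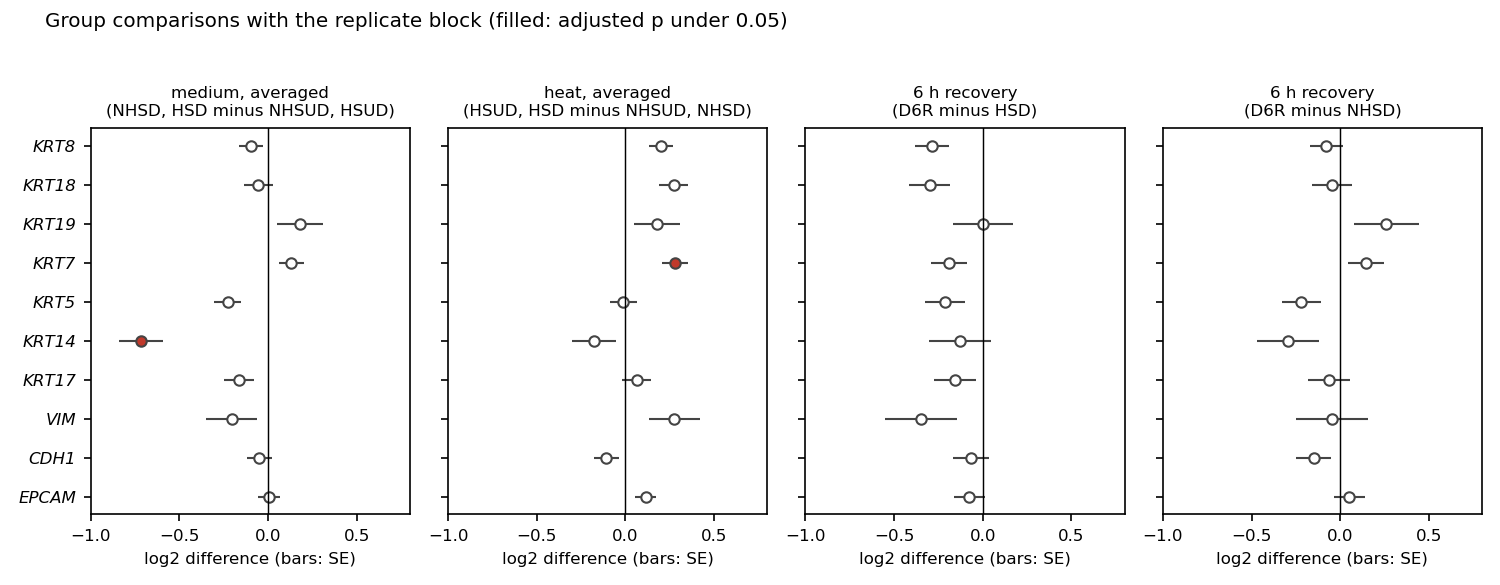
Log2 differences of the 10 genes in 4 comparisons from the edgeR fit with the replicate block (points, bars are SE); filled points have an adjusted p under 0.05. KRT14 is filled for the averaged medium difference (-0.72) and KRT7 for the averaged heat difference (0.28), and no point is filled in the 2 recovery panels.

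Across all 6 groups at once, edgeR without the block called 0 of the 10 members (0.33% of all tested genes), and 0 of them had an unadjusted p under 0.05. Fitted with the block, it called 3, KRT14 (adjusted p of 0.00518), KRT5 (0.0430) and KRT7 (0.0466), beside 8.42% of all tested genes, and 5 of the 10 had an unadjusted p under 0.05, as had 4198 of the 15158 tested genes. The KRT14 call was made in each of 18 fits that left out 1 library, and 1 to 3 members were called in them. Of the members not called, the group means of VIM ranged from 3.67 ± 1.24 CPM in D6R to 5.28 ± 1.83 in HSUD (SD, n = 3), CDH1 from 185 ± 40.4 in D2R to 231 ± 54.0 in NHSUD and EPCAM from 109 ± 20.9 in NHSD to 118 ± 11.8 in HSD. KRT19 ranged from 5.77 ± 2.67 in NHSUD to 7.37 ± 3.22 in HSD and KRT17 from 1952 ± 1189.8 in D6R to 2396 ± 1433 in HSUD. Of the other list genes, KRT80 was the 1 keratin of 14 called with the block (adjusted p of 0.0222). It lies next to KRT7 in the RefSeq annotation and was at 111 to 172 CPM in NHSUD, 111 to 138 in HSUD, 139.9 to 257 in NHSD, 161 to 173 in HSD, 168 to 272 in D2R and 149.6 to 179 in D6R. HSUD thus lay below the 4 lactogenic groups, while NHSUD, the other group in basal medium, overlapped each of them. KRT80 was not called for the averaged medium difference.

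The members' patterns over the 18 libraries were described by Pearson correlations of log2 CPM, which share the replicate numbers and carry no test. KRT8 and KRT18, adjacent in the RefSeq annotation, had a correlation of 0.89, and of 0.84 after the replicate means were removed. KRT5 and KRT14, a type II and a type I keratin, had 0.92 and 0.89. KRT19 and KRT7 had 0.89 and 0.63. VIM was close to EPCAM (0.92 and 0.79) and KRT8 (0.85 and 0.83). KRT17 and EPCAM were opposed (-0.85), and this value was -0.07 after the replicate means were removed. The log2 ratio of KRT8 to KRT18 reads was 0.82 ± 0.12 over the libraries (SD, n = 18), and the KRT5 to KRT14 read ratio lay between 16.4 and 48.8.

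Among the tested genes with a mean of at least 5 CPM, those most like KRT8 over the 18 libraries were MRPL48 (0.92), UBL4A (0.91) and HDDC2 (0.90). Most like KRT5 were PAK1 (0.95), CRTAP (0.95) and NIPSNAP1 (0.94). Most like VIM were NFU1 (0.96), ANXA1 (0.95) and NDUFA12 (0.95). Most like CDH1 were VCL, which encodes the junction and focal adhesion protein vinculin (0.98), IQGAP1 (0.96) and SEC31A (0.96). After the replicate means were removed, these 12 correlations lay between 0.80 and 0.92.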

How the data were processed

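Whole-number counts per gene were deposited by the authors. Per the labels' protocols, reads were trimmed with fastp 0.23.2 and aligned with STAR 2.7.9a to ARS-UCD 1.3. Per the submitters' processing notes, featureCounts 2.0.3, DESeq2 and limma were also used, with no role given. Of counts from 1 to 20, 69.8 to 75.0% were even in each library, so both mates of a pair may each have been counted, and a count is then not 1 molecule. No library was a copy of another.

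The counts were analysed in R 4.3.3 with edgeR 4.0.16 (TMM scaling, a low-count filter with a minimum count of 10, robust quasi-likelihood fits, 1 mean per group over all 18 libraries). Depth was 40891700 to 61155800 counts, and each group had 3 libraries, so the smallest p that exact permutation of 3 against 3 allows is 0.1, and it was not used. Fits with the replicate number as a block, DESeq2 1.42.0, other scalings, no filter and each library left out were alternatives. DESeq2 was run with its default filter, so its adjusted p covers only the genes kept by that filter in each comparison. Replicate numbers were tested by the F test of the replicate terms in the blocked fit. Averaged comparisons over heat or medium were added after the data were seen.

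The labels state that the experiment was repeated, and the numbers paired the libraries: the 45 same-numbered pairs of different groups had correlations of 0.135 to 0.596 between deviations from group means, other pairs a median of -0.199 and at most 0.225, and 18 of 18 libraries were closest to their own number. The common coefficient of variation was 0.245 without the block and 0.140 with it.

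All 10 members are named. Of the other lists, genes were named where a comparison or the replicate term called them, plus the 2 tested genes of a list with the highest CPM. Some genes with few or no reads were named as well. Genes like a member had the highest correlation among named genes with at least 5 CPM. Gene order came from RefSeq's table for ARS-UCD2.0, and gene sequences and lengths were not used here. The members and lists were chosen with earlier results of these data known. P-values measure the spread between cultures of 1 cell line, which may be partly technical.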

Additional observations from a re-analysis of the deposited data

How the results depend on the processing

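The replicate block decided most calls of a difference between groups. Without it, edgeR and DESeq2 called 0 of the 10 members in each of the 10 group comparisons, in both averaged comparisons and over all 6 groups, under every scaling, with no filter and with each library left out (range 0 to 0). With the replicate block, 3 members were called over all 6 groups (2 with library size alone, 3 with DESeq2 size factors, 5 with DESeq2, 1 to 3 with a library left out). For the averaged medium difference 1 was called (also with either scaling, and 2 with DESeq2, 1 to 1 with a library left out), and for the averaged heat difference 1 (also with DESeq2 size factors, 0 with library size alone, 3 with DESeq2, 0 to 3 with a library left out). DESeq2 with the block called 1 member, KRT14, for the medium without heat (where 2228 genes kept an adjusted p) and with heat, and 1, KRT8, for D6R against HSD. The block changed no other call of a member. The cause of the gap between the tools was not tested. Leaving out a library left 9 to 10 members called between replicate numbers.

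The KRT14 medium difference kept its sign in 33 of 33 alternatives (-0.98 to -0.49, called in 16), and the KRT7 heat difference in 33 of 33 (0.11 to 0.46, called in 8). The KRT7 heat difference in undifferentiated cells was -0.13 (adjusted p of 0.970) without HSUD replicate 3 and 0.57 without NHSUD replicate 3, its range over left-out libraries in the fit without the block, where replicate 3 then stood in 1 group alone. No other difference followed across all alternatives changed sign. Scaling by library size alone moved the median of all tested genes by -0.10 for heat in undifferentiated cells and by 0.13 for D6R against HSD. VIM and KRT19, with at most 385 and 510 reads a library, had the least depth of the members.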
